A study of Mus musculus with 6 samples.

Results

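Leukocyte marker genes were followed by blood cell lineage in cultured muscle satellite cells with and without Hira. The group holds 37 genes of the 55536 in the count tables, taken by gene symbol from a list of known markers. Of these, 7 mark leukocytes in general, 3 are shared by myeloid cells, 10 mark macrophages and monocytes, 4 neutrophils, 4 T cells, 2 B cells, 2 NK cells, 2 mast cells and 3 dendritic cells. The rule used gene names and no measured value, but the genes were chosen with earlier results of these data known.

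The RNA-seq libraries came from satellite cells (the stem cells of skeletal muscle) sorted by FACS from injured muscle of C57BL/6J mice at 5 days post injury and cultured for 48 h in high serum medium. There were 3 control (Pax7CreErt2;Hira fl/+) and 3 cKO (Pax7CreErt2;Hira fl/fl) samples, from adult male mice that had received a tamoxifen diet and a BaCl2 injection into the Tibialis anterior. Both groups therefore carried the Cre allele and at least 1 floxed copy of Hira, although the deposited genotype of the controls reads WT. The Cre is driven by Pax7, a gene of muscle stem cells. The sort kept CD34+ ITGA7+ cells and left out cells positive for CD45, the pan-leukocyte antigen, for TER119 or for SCA1. It was not stated whether each sample came from a separate animal, so the p-values measure the spread between these samples, which may be technical.

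Injured muscle fills with blood cells in a known order, neutrophils first and then monocytes that become macrophages. Macrophages clear dead fibres and then signal to satellite cells, while T cells, mast cells and dendritic cells are fewer. Myeloid genes depend on PU.1, the transcription factor encoded by Spi1, and the receptor for colony stimulating factor 1, encoded by Csf1r, is needed for macrophage survival.

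The libraries held 47944477 to 63323577 counts each. Hira, the targeted gene, had counts of 375, 348 and 341 in control against 161, 293 and 272 in cKO (log2 fold change -0.43, with a standard error (SE) of 0.12, adjusted p = 0.0237, edgeR's quasi-likelihood test). Without control replicate 1 it was at -0.34 and not called (adjusted p = 0.104), and it was -0.29 without cKO replicate 1, which had the lowest Hira count. Exons of Gm28539 on the same strand cover 44.7% of the exon length of Hira, and reads there may not be assigned to Hira. Satellite and myogenic markers were abundant in all samples. Over 8 genes they summed to 9236 to 9354 CPM in control against 8176 to 8723 CPM in cKO. Of these genes 7 were downregulated, against 6.46% of all genes tested, and 5 were so with any 1 sample left out. CPM is a gene's count scaled to the total of its library.

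PU.1 binds a short purine-rich core, and the sequence before the start of the marker genes was searched for it. RefSeq promoter windows, from 250 bases before to 50 bases after each start, were found for 28 of the 37 genes. The core GAGGAA, on either strand, was in the windows of 15 of these 28 genes (53.6%), against 31.3% of all genes with a window. Among the 13 pan-leukocyte, myeloid and macrophage genes with a window it was in 6 (46.2%), namely Ptprc, Laptm5, Cd53, Aif1, Fcgr1 and Mrc1. The other genes with the core were Csf3r, Ly6g, S100a8, Cd3e, Cd8a, Cd79a, Klrb1c, Siglech and Kit. Their lineages had no upregulated marker among the 37 genes. The longer box GAGGAAGT, which contains the core, was in 3 of the 28 genes (Cd53, Ly6g and S100a8), against 3.69% of all genes. The RUNX core TGTGGT was in 8 of the 28 genes (28.6%) against 18.9% of all genes. A match is only a run of letters, and no binding was measured in these samples. The bases before the start are given for 4 upregulated markers that hold the core, and for Cd163, a macrophage gene that was not called and whose window holds none. They are read 5′ to 3′ along the gene in build GRCm38.p6, and capitals mark the PU.1 core, written TTCCTC where it lies on the other strand.
Ptprc: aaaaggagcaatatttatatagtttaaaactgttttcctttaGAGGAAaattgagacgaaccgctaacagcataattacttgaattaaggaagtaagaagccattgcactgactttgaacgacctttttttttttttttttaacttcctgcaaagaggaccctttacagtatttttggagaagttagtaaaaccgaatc
Cd53: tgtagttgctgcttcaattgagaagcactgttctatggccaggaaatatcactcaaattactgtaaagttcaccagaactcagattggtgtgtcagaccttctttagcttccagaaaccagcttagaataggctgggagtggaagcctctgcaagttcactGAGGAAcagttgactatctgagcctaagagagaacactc
Fcgr1: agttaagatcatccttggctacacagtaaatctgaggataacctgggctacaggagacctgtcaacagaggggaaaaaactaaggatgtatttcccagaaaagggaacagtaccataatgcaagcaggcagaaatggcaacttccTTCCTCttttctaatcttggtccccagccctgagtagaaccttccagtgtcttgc
Mrc1: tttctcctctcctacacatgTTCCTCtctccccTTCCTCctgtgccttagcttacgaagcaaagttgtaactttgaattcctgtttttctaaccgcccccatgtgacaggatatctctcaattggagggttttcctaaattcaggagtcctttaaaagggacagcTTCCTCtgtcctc
Cd163: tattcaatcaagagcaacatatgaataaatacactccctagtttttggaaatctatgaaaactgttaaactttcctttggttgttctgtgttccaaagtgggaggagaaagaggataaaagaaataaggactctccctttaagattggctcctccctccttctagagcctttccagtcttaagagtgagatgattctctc
The stretch of Ptprc lies at chr1:138175307-138175505, minus strand, and its core begins 158 bases before the start. This is 1 of 2 RefSeq windows of Ptprc, and the other holds no core. The stretch lies between exons within the longer GENCODE M21 gene, which starts further upstream. That of Cd53 lies at chr3:106790150-106790349, minus strand, with the core at 39 bases before the start. The Fcgr1 stretch lies at chr3:96293970-96294169, minus strand, with the core at 55 bases before the start. Mrc1 has 3 copies, at 180, 167 and 35 bases before its start, in chr2:14229214-14229391, plus strand. The Cd163 stretch lies at chr6:124304451-124304650, plus strand. Not all upregulated markers hold the core, since it was in none of the windows of Coro1a, Lcp1, Fcer1g and Mertk.

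Reads of leukocyte marker genes were found in both groups, and almost all were of the pan-leukocyte, myeloid and macrophage genes. The 37 genes summed to 39.6 to 43.6 CPM in the control and to 73.2 to 85.6 CPM in the cKO samples. The 20 pan-leukocyte, myeloid and macrophage genes made up 97.8% to 98.7% of these counts in every library. Pan-leukocyte genes mark leukocytes in general, so this share does not measure the make-up by lineage. More than 3 counts in all 6 libraries were found for 21 of the 37 genes, of which 19 belong to these 20 genes, and the others were the B cell gene Cd79a and the dendritic cell gene Xcr1. A count of 0 in a library allows up to 3 counts, which is 0.0474 to 0.0626 CPM at these depths and covers counting error only.

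**Figure D1:**
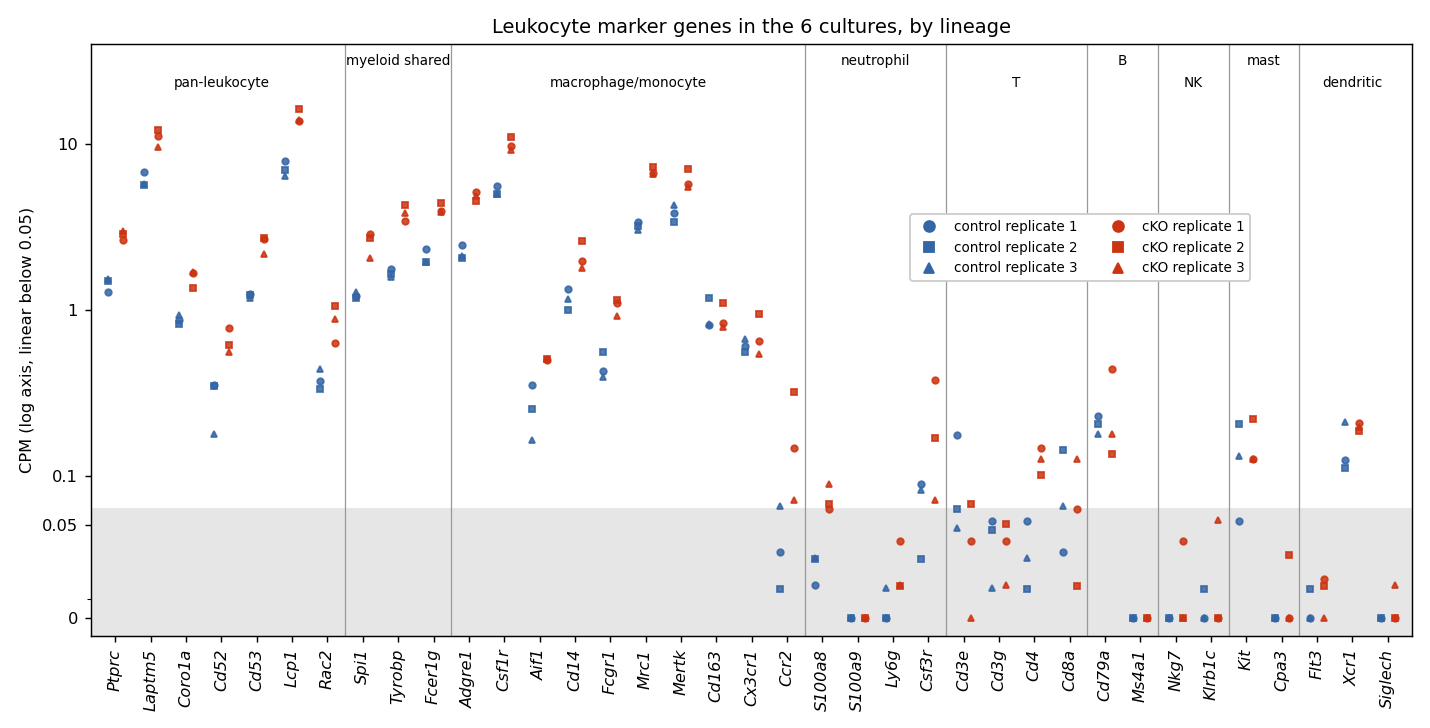
CPM of the 37 marker genes in each sample, grouped by lineage along the horizontal axis, on a log axis that is linear below 0.05 CPM. Blue points are control and red points cKO, 1 point for each of 3 replicates, and the grey band reaches up to 3 counts in the smallest library. Pan-leukocyte, myeloid and macrophage genes other than Ccr2 lie above 0.1 CPM, with all cKO points over the control points except for Cd163 and Cx3cr1, while genes of the other lineages lie below 0.5 CPM.

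In cKO 17 of the 37 genes were upregulated, and none was downregulated. The 17 were among the 21 genes with enough counts to be tested, and the fitted log2 fold changes of the 17 ran from 0.65 to 1.20. Of the 21, Aif1, which was called, and Xcr1, which was not, passed the filter on low counts through the cKO samples alone. Cd79a passed it through the control samples alone. Over all 22404 genes tested, 9.38% were upregulated and 6.46% downregulated at an adjusted p under 0.05, and the median log2 fold change was -0.001, against 0.95 for the 21 tested markers. For all 17 genes every cKO sample lay above every control sample in CPM, as did 20.3% of all genes tested, while 11.1% had every cKO sample below every control sample. The tested genes that were not called were Cd163, Cx3cr1, Cd79a and Xcr1, and the 16 genes not tested had too few counts. Of the 17 genes, 15 were called with any 1 sample left out, the others being Cd52 and Aif1. Bulk RNA cannot tell a larger number of leukocytes from more RNA of these genes per cell, nor say which cells held it.

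**Figure D2:**
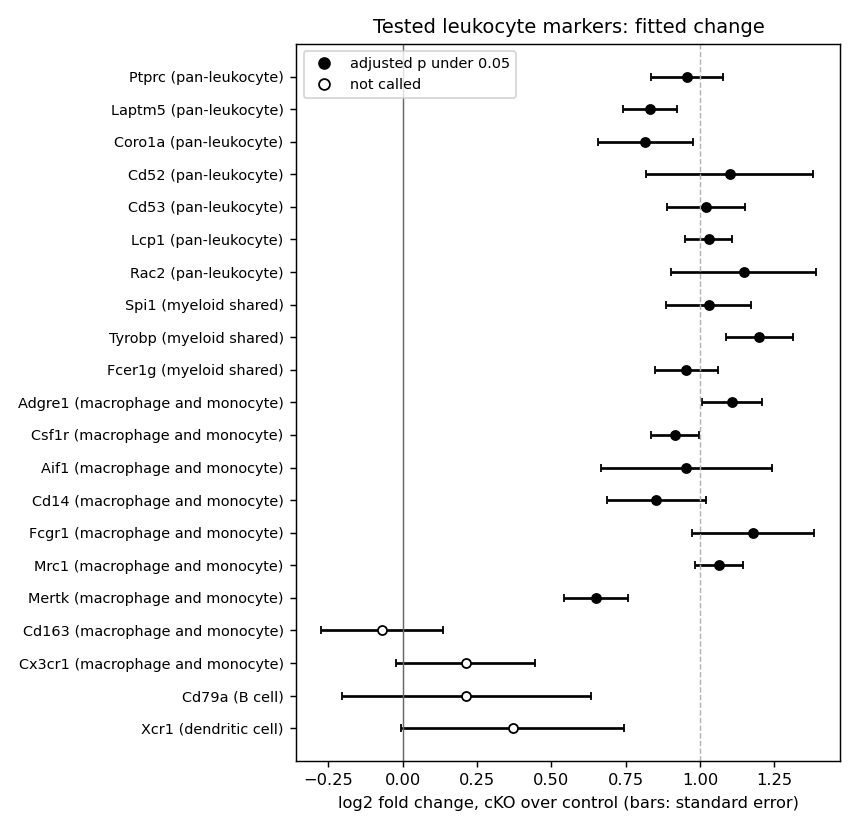
Fitted log2 fold change, cKO over control, of the 21 tested marker genes, with bars of 1 SE from edgeR. Filled points had an adjusted p under 0.05, and the dashed line marks a log2 fold change of 1. The 17 filled points lie between 0.65 and 1.20, and the open points are Cd163, Cx3cr1, Cd79a and Xcr1.

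All 7 pan-leukocyte genes were upregulated in cKO. Ptprc (ENSMUSG00000026395, chromosome 1, 138062861 to 138175708 in GENCODE M21) encodes CD45, the antigen against which the cells had been sorted. It had counts of 72, 94 and 94 in control against 126, 169 and 167 in cKO. Its level went from 1.43 ± 0.137 to 2.83 ± 0.184 CPM (SD, n = 3 each), and the log2 fold change was 0.96 with an SE of 0.12 (adjusted p = 5.2e-05, edgeR). The 2 groups did not overlap, and the lowest cKO sample was at 2.63 CPM against 1.53 CPM for the highest control sample.

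Lcp1, which encodes the actin-bundling protein L-plastin, had counts of 443, 438 and 393 in control against 658, 953 and 779 in cKO. The fitted log2 fold change was 1.03 (SE 0.08, adjusted p = 2.8e-07, edgeR). Laptm5, a lysosomal membrane protein of haematopoietic cells, had counts of 381, 358 and 352 in control against 536, 713 and 532 in cKO (log2 fold change 0.83). In both genes the highest sample was cKO replicate 2, and no control sample reached the level of any cKO sample. The tetraspanin Cd53 went from 70, 78 and 72 to 128, 159 and 121 counts (log2 fold change 1.02), and Coro1a, which encodes an actin regulator of leukocytes, from 49, 52 and 57 to 80, 80 and 94 counts (0.82). Rac2, a GTPase of the leukocyte oxidase and cytoskeleton, had counts of 21, 21 and 27 in control against 30, 62 and 49 in cKO (log2 fold change 1.15, SE 0.24). The smallest counts of the group were those of Cd52, a small surface glycoprotein, with 20, 22 and 11 in control against 37, 36 and 31 in cKO (log2 fold change 1.10, SE 0.28, adjusted p = 0.014, edgeR). Without control replicate 3, the lowest of its samples, Cd52 was at 0.84 and was not called (adjusted p = 0.0736). Of its exon length 14.5% overlaps Crybg2 on the other strand.

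The 3 genes shared by myeloid cells were all upregulated as well. Spi1, the gene of PU.1, had counts of 68, 75 and 78 in control against 138, 159 and 115 in cKO (log2 fold change 1.03, SE 0.14, adjusted p = 0.00013, edgeR). Tyrobp and Fcer1g encode adaptors that pass on the signal of activating receptors. Tyrobp had counts of 99, 104 and 96 in control against 164, 252 and 215 in cKO. Its log2 fold change of 1.20 (SE 0.11, adjusted p = 2.6e-06, edgeR) was the highest of the 21 tested markers. However, those of Fcgr1, Rac2, Adgre1 and Cd52 lay within its error, and the order changed with a sample left out. Fcer1g had 132, 123 and 119 against 188, 260 and 217 counts (log2 fold change 0.95, SE 0.11). Per length of merged exons, Tyrobp and Fcer1g were also the most abundant of the 37 genes. Tyrobp was at 2.48 ± 0.141 CPM per kilobase of exons (RPKM) in control and 5.76 ± 0.630 RPKM in cKO, and Fcer1g at 2.37 ± 0.260 and 4.65 ± 0.325 RPKM (SD, n = 3 each), so that their order within a group lay within the spread of the samples in control but not in cKO. Ptprc, with the longest merged exons of the group, was at 0.0781 RPKM in control and 0.154 RPKM in cKO.

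Of the 10 macrophage and monocyte genes, 7 were upregulated, 2 were tested and not called, and Ccr2 was not tested. Adgre1, which encodes the F4/80 antigen of mature mouse macrophages, had counts of 138, 130 and 129 in control against 245, 268 and 269 in cKO. The fitted log2 fold change was 1.11 (SE 0.10, adjusted p = 1.7e-06, edgeR). Mrc1, the mannose receptor CD206, had 192, 203 and 186 counts against 318, 426 and 369 (log2 fold change 1.06, SE 0.08, adjusted p = 2.6e-07). The 3 samples of a group lay close together in both genes, and the groups did not overlap.

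Csf1r, the receptor of the macrophage growth factor, had counts of 317, 315 and 307 in control against 467, 651 and 509 in cKO (log2 fold change 0.92). A share of 15.1% of its exon length overlaps Hmgxb3 on the other strand, and whether the counting used strand was not stated. Fcgr1, the high-affinity receptor for IgG, had counts of 24, 35 and 24 in control against 53, 68 and 51 in cKO (log2 fold change 1.18, SE 0.21). Cd14, the co-receptor for bacterial lipopolysaccharide, had 75, 63 and 71 counts against 94, 154 and 99, with cKO replicate 2 above the others, and a log2 fold change of 0.85 (SE 0.17). Mertk, a receptor for the uptake of dead cells, had counts of 215, 213 and 264 in control against 274, 416 and 307 in cKO. Its log2 fold change of 0.65 (SE 0.11, adjusted p = 0.00059, edgeR) was the smallest among the 17 upregulated genes in this fit. Aif1, which encodes the calcium-binding protein IBA1, had counts of 20, 16 and 10 in control against 24, 30 and 28 in cKO (log2 fold change 0.95, SE 0.29, adjusted p = 0.035, edgeR). Only 2 of its 3 control samples reached the limit of the filter on low counts. Its call was the least secure of the 17, as the adjusted p was 0.145 in DESeq2, and Aif1 was called in 1 of the 6 fits with a sample left out (0.95 and adjusted p = 0.107 without control replicate 2, 0.71 and 0.155 without control replicate 3, 0.96 and 0.0563 without cKO replicate 1, 0.95 and 0.0757 without cKO replicate 2, 0.95 and 0.0902 without cKO replicate 3).

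The macrophage genes that were tested and not called were Cd163 and Cx3cr1. Cd163 (ENSMUSG00000008845, chromosome 6, 124304656 to 124330527), the haemoglobin scavenger receptor of resident macrophages, had counts of 46, 75 and 50 in control against 40, 65 and 44 in cKO. Its level was 0.937 ± 0.214 CPM in control and 0.907 ± 0.168 CPM in cKO, with a fitted log2 fold change of -0.07 (SE 0.20, adjusted p = 0.88, edgeR). The groups overlapped, and replicate 2 was the highest in each. Cx3cr1 (ENSMUSG00000052336, chromosome 9, 119901616 to 120069879), the fractalkine receptor of patrolling monocytes and many resident macrophages, had counts of 34, 35 and 41 in control against 31, 56 and 30 in cKO. The fitted log2 fold change was 0.21 (SE 0.23, adjusted p = 0.63), and -0.067 without cKO replicate 2, the sample with the most. Both genes had more counts in control than Cd52, Rac2, Fcgr1 and Aif1, which were called.

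Ccr2, the chemokine receptor of inflammatory monocytes, was close to the limit of detection. It had counts of 2, 1 and 4 in control against 7, 19 and 4 in cKO, and only cKO replicates 1 and 2 held clearly more than the controls. In a fit without the filter on low counts its log2 fold change was 2.15 (adjusted p = 0.0088, edgeR). The adjusted p of all 17 upregulated markers was smaller in that fit, with 2.6e-11 for Ptprc.

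To compare the genes with one another, each tested marker was divided by Ptprc in the same sample, which takes out a common factor. The difference in the log2 ratio between cKO and control had a median of 0.023 over the other 20 tested genes and ran from -1.03 to 0.24. For 18 of the 20 the groups overlapped. The exceptions were Cd163 and Cx3cr1, for which every cKO ratio lay below every control ratio, as it did for 89.5% of all genes tested, against 0.429% with every cKO ratio above. A gene of unchanged level falls against Ptprc, which was itself upregulated. Cd163 was at 0.639, 0.798 and 0.532 times Ptprc in control and at 0.318, 0.385 and 0.264 times in cKO, a log2 difference of -1.03. Cx3cr1 was at 0.472, 0.372 and 0.436 times Ptprc in control and 0.246, 0.331 and 0.180 times in cKO, a log2 difference of -0.80. With 3 against 3 samples the smallest p of an exact two-sided permutation test is 0.1, so no gene could pass such a test. These ratios use the same counts as the fold changes above.

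**Figure D3:**
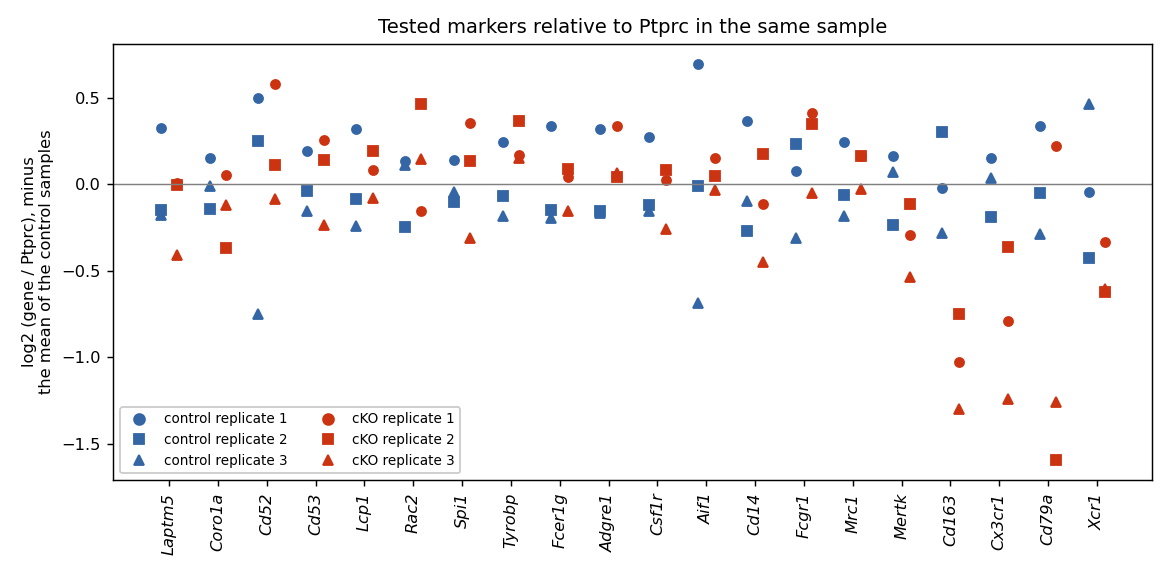
Log2 ratio of each of the 20 other tested markers to Ptprc in the same sample, minus the mean of the 3 control samples of that gene, with control in blue and cKO in red. Points of both colours mix around 0 for most genes, and for Cd163 and Cx3cr1 all 3 cKO points lie below the control points.

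Neutrophil, lymphoid, mast cell and dendritic cell genes were at or near the limit of detection. Of their 17 genes, 15 had too few counts to be tested, none had over 21 counts in any library, and none was upregulated or downregulated. The neutrophil genes S100a8 and S100a9 encode the calprotectin subunits that abound in neutrophils. S100a9 had 0 counts in all 6 libraries, and S100a8 had 1, 2 and 2 in control against 3, 4 and 5 in cKO. The surface marker Ly6g had counts of 0, 0 and 1 in control against 2, 1 and 1 in cKO. Csf3r, the receptor for granulocyte colony stimulating factor, which monocytes share with neutrophils, had counts of 5, 2 and 5 in control against 18, 10 and 4 in cKO. It supplied most of the neutrophil sum, which was 18 counts over the control and 48 over the cKO libraries, and cKO replicate 3 lay within its control range in CPM. In the fit without a filter Csf3r was at a log2 fold change of 1.52 (adjusted p = 0.0505, edgeR).

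T cell genes summed to 45 counts over the control and 43 over the cKO libraries. Cd3e and Cd3g encode chains of the CD3 complex, with 10, 4 and 3 counts in control against 2, 4 and 0 in cKO for Cd3e. Cd3g had counts of 3, 3 and 1 in control against 2, 3 and 1 in cKO. The co-receptor gene Cd8a had 2, 9 and 4 counts against 3, 1 and 7. Cd4, the other co-receptor, had counts of 3, 1 and 2 in control against 7, 6 and 7 in cKO, so its groups did not overlap, but it was not tested, and in the fit without a filter its adjusted p was 0.126. A higher level of the CD3 genes, which define T cells, was not detectable in cKO at this depth.

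B cell, NK cell, mast cell and dendritic cell genes showed the same low levels. Cd79a, a chain of the B cell receptor complex, had counts of 13, 13 and 11 in control against 21, 8 and 10 in cKO, with cKO replicate 1 apart from the others. Its log2 fold change was 0.21 (SE 0.42, adjusted p = 0.81, edgeR) and -0.41 without that replicate. Ms4a1, which encodes CD20, had 0 counts in all 6 libraries. The NK cell genes Nkg7 and Klrb1c summed to 1 count in control and 5 in cKO, with Nkg7 seen in cKO replicate 1 alone (2 counts) and Klrb1c in control replicate 2 (1 count) and cKO replicate 3 (3 counts). Kit, the stem cell factor receptor of mast cells and progenitors, had counts of 3, 13 and 8 in control against 6, 13 and 7 in cKO, while Cpa3, the mast cell carboxypeptidase, had 2 counts in cKO replicate 2 and 0 elsewhere. Xcr1, a chemokine receptor of cross-presenting dendritic cells, had 7, 7 and 13 counts against 10, 11 and 11 (log2 fold change 0.37, SE 0.38, adjusted p = 0.60). Flt3, the growth factor receptor of dendritic cell precursors, and Siglech, of plasmacytoid dendritic cells, had at most 1 count in a library.

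The sums over each lineage showed a higher level in cKO for the pan-leukocyte, myeloid and macrophage genes, given here as a description. Pan-leukocyte genes added up to 17.3 ± 1.22 CPM in control against 33.9 ± 2.54 CPM in cKO, 1.96 times as much. Myeloid genes went from 4.94 ± 0.298 to 10.5 ± 0.799 CPM, 2.12 times, and macrophage genes from 17.9 ± 0.840 to 33.1 ± 2.96 CPM, 1.85 times (SD, n = 3 each). T cell genes were at 0.250 ± 0.0794 and 0.266 ± 0.0278 CPM, B cell genes at 0.205 ± 0.0254 and 0.251 ± 0.164 CPM, and neutrophil genes at 0.0999 ± 0.0340 and 0.304 ± 0.157 CPM. Mast cell genes were at 0.130 ± 0.0761 and 0.168 ± 0.0741 CPM and dendritic cell genes at 0.154 ± 0.0501 and 0.216 ± 0.0133 CPM. The cKO samples lay above all control samples in the first 3 sums, with cKO replicate 2 the highest, and the T, B, mast and dendritic cell sums overlapped. The neutrophil sums did not overlap, at 0.0632 to 0.130 CPM in control against 0.179 to 0.480 CPM in cKO, with 4 to 8 and 10 to 23 counts.

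**Figure D4:**
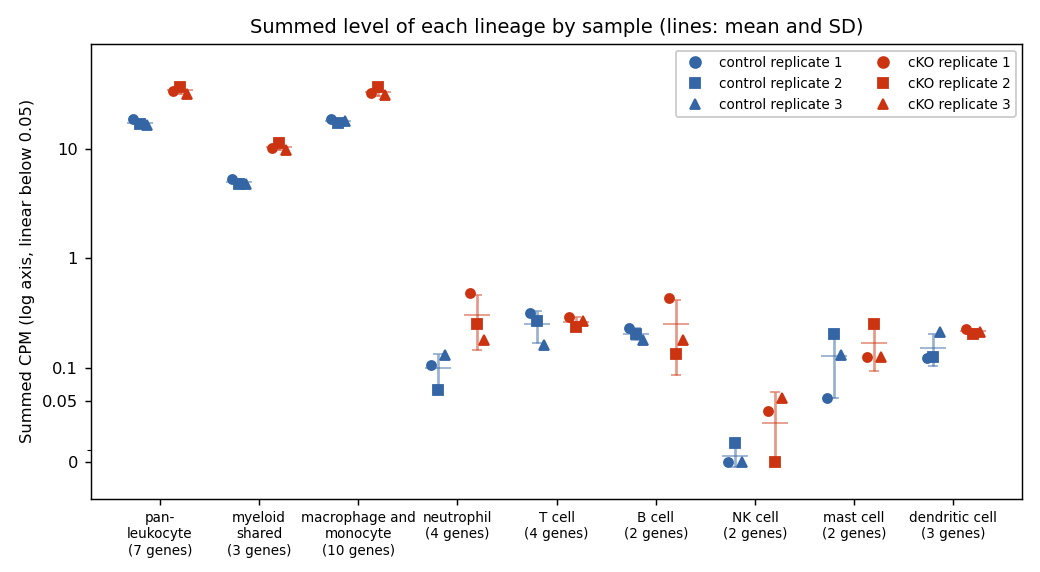
CPM summed over the marker genes of each lineage, 1 point for each sample, with control in blue, cKO in red and lines for the mean and SD of 3 samples, on a log axis that is linear below 0.05 CPM. The first 3 lineages lie between 4.77 and 36.7 CPM with the cKO points apart from the control points, and the other lineages lie below 0.5 CPM.

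A wider set of 82 genes of 11 blood lineages, drawn from general knowledge with earlier results of these data known, was read from the same fit. Of these, 44 were tested, 32 were upregulated and none was downregulated, against 9.38% and 6.46% of all genes tested. Of 18 macrophage genes 15 were tested and called as upregulated, of which Vsig4 passed the filter through the cKO samples alone. The most abundant were Lyz2, which encodes lysozyme and went from 80.4 ± 1.46 to 186 ± 17.0 CPM (log2 fold change 1.18), and the protease gene Ctss from 18.6 ± 0.832 to 43.0 ± 3.15 CPM (1.19). All 12 pan-leukocyte genes were tested and 10 were upregulated, with a median log2 fold change of 0.80 and a range of 0.28 to 1.18 over the 12, and the integrin subunit Itgb2 was at 1.15. With any 1 sample left out 7 of the 10 were called, the others being Dock2, Cd48 and Ncf4. Of 6 dendritic cell genes 4 were tested, and Itgax, the integrin CD11c that macrophages also carry, was upregulated (1.08, SE 0.17), whereas Zbtb46, a transcription factor of dendritic cells and endothelium, was at 0.08.

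Single genes outside the macrophage lists were upregulated too. Among 8 neutrophil genes only Mmp8, a collagenase, was tested, and it was upregulated (log2 fold change 1.52), with Mpo at 0.101 and 0.129 CPM in the groups and Elane and Ltf at 0 in all libraries. Of 5 tested T cell genes, the interleukin 7 receptor gene Il7r (1.57, SE 0.15) and Trac, the constant region of the T cell receptor α chain (0.95, SE 0.24), were upregulated. The other tested T cell genes had negative log2 fold changes and were not called. Lck, a kinase of T cell receptor signalling, was at -0.40, Zap70 at -0.32 and Cd5 at -0.59 (adjusted p = 0.30, 0.53 and 0.23, edgeR). The median of the 5 was -0.32. Trac was not called in DESeq2 (adjusted p = 0.0706). Cd22, a B cell lectin, was called (1.70) with 0.0876 CPM in control against 0.298 CPM in cKO, but it passed the filter on low counts through the cKO samples alone, as no control sample reached the limit of 0.173 CPM. Pax5, which B cells require, was at 0.127 and 0.125 CPM and was not tested. The platelet chemokine genes Pf4 (1.80) and Ppbp (1.74) were upregulated, while Itga2b, the platelet integrin subunit, was at 0.04. The platelet gene Gp9 had 0 counts in all libraries. Gp1bb was not tested, with 13 counts over the control and 19 over the cKO libraries. Trac, Zap70, Cd5, Ppbp, Gp9, Gp1bb, Elane, Ltf, Vsig4 and the genes that lost their call with a sample left out were named after their values were seen. None of the NK cell, mast cell, eosinophil and erythroid genes was called, of which Prf1, Gata2 and Alas2 were tested, with log2 fold changes of -0.63, 0.01 and 0.51 (adjusted p = 0.32, 0.95 and 0.21, edgeR).

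Some markers of other cell types were upregulated in cKO too. For comparison, 9.38% of all genes tested were upregulated and 6.46% downregulated. Of 10 fibroblast genes, 9 were tested and 6 upregulated, and their sum was 838 to 897 CPM in control against 1172 to 1316 CPM in cKO. Of 10 endothelial genes 5 were upregulated, with sums of 18.1 to 20.6 and 28.4 to 34.1 CPM. Of 7 tested smooth muscle and pericyte genes 6 were upregulated and 1 downregulated, with sums of 3212 to 3273 and 3517 to 3665 CPM, and 1 of 5 tested Schwann and glial genes was upregulated, with sums of 27.9 to 29.9 and 37.02 to 42.5 CPM. With any 1 sample left out, all 6 fibroblast calls remained, 2 of the 5 endothelial calls (not Pecam1, Cdh5 and Esam), and 5 of the 7 smooth muscle and pericyte calls (not Acta2 and Cspg4). The median log2 fold change of the tested genes was 0.70 for fibroblast, 0.41 for endothelial, 0.57 for smooth muscle and pericyte and 0.34 for Schwann and glial genes, against 0.92 for the macrophage markers. Single genes of these lists changed as much as the macrophage markers, such as the collagen gene Col1a1 with 1.29 and the VEGF receptor gene Flt1 with 1.12, while Col1a2, which made up most of the fibroblast sum, was at 0.26. Like the pan-leukocyte, myeloid and macrophage sums, the fibroblast, endothelial, smooth muscle and pericyte, and Schwann and glial sums were highest in cKO replicate 2. Their part in the leukocyte result was not tested.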

How the data were processed

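RNA-seq libraries (stranded total RNA after removal of ribosomal RNA, from 400 ng of RNA, single-end reads of 75 bases) were read as deposited counts: per the labels, the authors aligned reads to mm10 with Bowtie2 2.3.4.2 and counted them per gene with featureCounts 1.6.3, and the values are raw whole-number counts. The strand and multi-mapping settings of the counting are not given in the sources used here. Tables of normalized values and of the authors' own DESeq2 2.11.40.6 comparison (fold changes and p-values) were not used.

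All 55536 gene identifiers were matched to GENCODE M21. The 37 genes, the wider lists and the tests were chosen with earlier results of these data known. Genes were filtered with filterByExpr (minimum count 10), scaled by TMM and tested by genotype over all 6 samples with edgeR 4.0.16 (R 4.3.3), with Benjamini-Hochberg adjustment over all 22404 genes and a threshold of 0.05. Standard errors are the log2 fold change divided by the root of the F statistic. CPM used total counts, and RPKM also the merged exon length. Alternatives were DESeq2 1.42.0, RLE and total-count scaling, no filter, an adjusted p under 0.01, the replicate block and each sample left out. The fitting script was tested on simulated data, in which the share of false calls was above the threshold of 0.05. Replicates differed by more than sampling noise (chi-square per degree of freedom 2.03 to 9.39). Their spread beyond sampling noise was small, with a common biological coefficient of variation of 3.92% in edgeR, and the p-values rest on it. All 37 genes are named, and the rule for each wider list was the 2 genes with the highest mean CPM. Of these, 1 pan-leukocyte gene is not reported here, and some untested genes and the genes of other cell types are given only within the counts and sums of their lists. Depth was 47944477 to 63323577 counts per sample, and intervals and floors cover counting error only. Promoter sequences came from RefSeq (GRCm38.p6), and the printed stretches end at the RefSeq start, or before it where a GENCODE exon of the gene begins earlier.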

Additional observations from a re-analysis of the deposited data

How the results depend on the processing

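The number of upregulated markers was 15 to 18 over all alternatives (16 in DESeq2, 18 without the filter, which added Ccr2, 15 at an adjusted p under 0.01, and 15 to 17 with 1 sample left out), and none was downregulated in any of them. The median log2 fold change with 1 sample left out was 0.95 to 1.06 for pan-leukocyte, 0.98 to 1.16 for myeloid and 0.84 to 0.97 for macrophage genes. Among all genes, the number downregulated was 732 at an adjusted p under 0.01 and 917 to 1673 with 1 sample left out, being 917, 934 and 960 without control replicates 1, 2 and 3, against 1448. With total counts in place of TMM, 2462 genes were upregulated and 1057 downregulated (70.0% upregulated against 59.2%). The sign turned for genes that were not called. With 1 sample left out, the log2 fold change of Cd163 ran from -0.24 to 0.14 (0.14 without control replicate 2 and 0.021 without cKO replicate 3), that of Cx3cr1 from -0.067 to 0.38, that of Cd79a from -0.41 to 0.53, that of Gata2 from -0.020 to 0.027 and that of Itga2b from -0.044 to 0.14; the cause was not tested. Same-numbered control and cKO samples did not deviate together (correlations of -0.013, -0.0045 and -0.015). Such correlations cannot exclude a pairing, so whether the samples were paired is not known. With the replicate block 16 markers and 1901 genes in all were upregulated and 1251 downregulated, and Aif1 was the marker not called (adjusted p = 0.0527). Depth limits the lineages other than macrophages: 21 genes had more than 3 counts in every library and 18 had more than 10.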
